A study of Bos taurus with 8 samples.

Results

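Large luteal cells (LLC) of the bovine corpus luteum (CL) were profiled on 4 arrays, which were taken by their labelled cell type from the 8 arrays of the series. The other 4 arrays held small luteal cells (SLC) and serve here as the reference. Both cell types were primary cells from mature, mid-cycle CL of lactating Holstein cows, whose cycles had been synchronized with the prostaglandin analogue cloprostenol. The tissue was dissociated with collagenase, luteal cells were enriched on Percoll, and Hoechst-stained cells were split by FACS into a large and a small fraction. The groups thus share breed, lactation, cycle stage and treatment, and differ in the fraction that was sorted. The ages of the cows were not stated. The labels call the samples of each type biological replicates 1 to 4. No source states that equal numbers mark the same cow, so p-values measure the spread between these samples.

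Each value is a log2 signal of the Bovine Gene 1.0 ST array after robust multi-array averaging (RMA), so that a difference of 1 equals a 2-fold ratio. RMA gives all arrays nearly the same overall distribution, and a level is therefore relative to the other genes of its array. Levels were described over 18087 genes, each represented by 1 transcript cluster with a single symbol. The percentile of a gene is its place among these genes within an array. Probes of different genes do not share an exact scale, so ranks and percentiles across genes are approximate.

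The CL forms from the ovulated follicle and secretes progesterone, which maintains pregnancy. LLC descend mainly from granulosa cells and SLC mainly from theca cells. In ruminants, LLC store and release oxytocin, secrete progesterone at a high basal rate and carry the receptor for prostaglandin F2alpha (PGF2alpha), the signal from the uterus that ends the life of the CL. SLC respond to luteinizing hormone through its receptor.

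The 5 marker genes of LLC all had higher signals in LLC than in SLC. They were chosen with earlier results of these data known, so they are no independent check of the label. PTGFR, the PGF2alpha receptor gene, had signals of 11.37, 11.31, 11.32 and 10.89 in LLC replicates 1 to 4. In SLC it was at 7.69, 6.82, 7.75 and 6.96, so that the lowest LLC array lay far above the highest SLC array. The difference was 3.92 (SE 0.22, limma adjusted p = 2.57e-05). PTGFR ranked from 3 to 13 among all genes in the LLC arrays and from 743 to 1665 in the SLC arrays. OXT, which encodes the oxytocin precursor, was at 11.18, 11.15, 11.27 and 11.05 in LLC, ranking from 7 to 9. It was thus both very high and nearly equal in the 4 LLC arrays, whereas SLC ranged from 6.56 to 8.74 (difference 3.68, SE 0.38, adjusted p = 0.000292). A secreted hormone precursor and the receptor for the luteolytic signal were therefore among the 20 highest signals of LLC. Since each sample pools the RNA of many cells, fewer cells of a type and less RNA per cell cannot be told apart here or in any later comparison.

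The other markers had lower signals. NR5A2, a nuclear receptor gene of granulosa and luteal cells, was at 9.48, 9.19, 9.38 and 8.32 in LLC (percentile 98.9) and at 3.85 to 4.88 in SLC, a difference of 4.70 (SE 0.28). FST, which encodes follistatin, an activin-binding protein of granulosa cells, was at 8.31, 7.56, 7.19 and 6.97 against 4.30 to 4.72 in SLC, a difference of 2.92 (SE 0.25). CYP19A1, the aromatase gene of estradiol synthesis, was the lowest of the 5, at 6.07, 6.11, 5.91 and 4.91 (percentile 79.7) against 2.21 to 2.85 in SLC, a difference of 3.21 (SE 0.26). For each of these 3 markers all LLC arrays lay above all SLC arrays, as in 12.6% of all genes. LLC replicate 4 was the lowest LLC array for each of them, as it also was for PTGFR and OXT. The adjusted p of these 3 genes lay between 2.60e-05 and 0.000125.

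**Figure D1:**
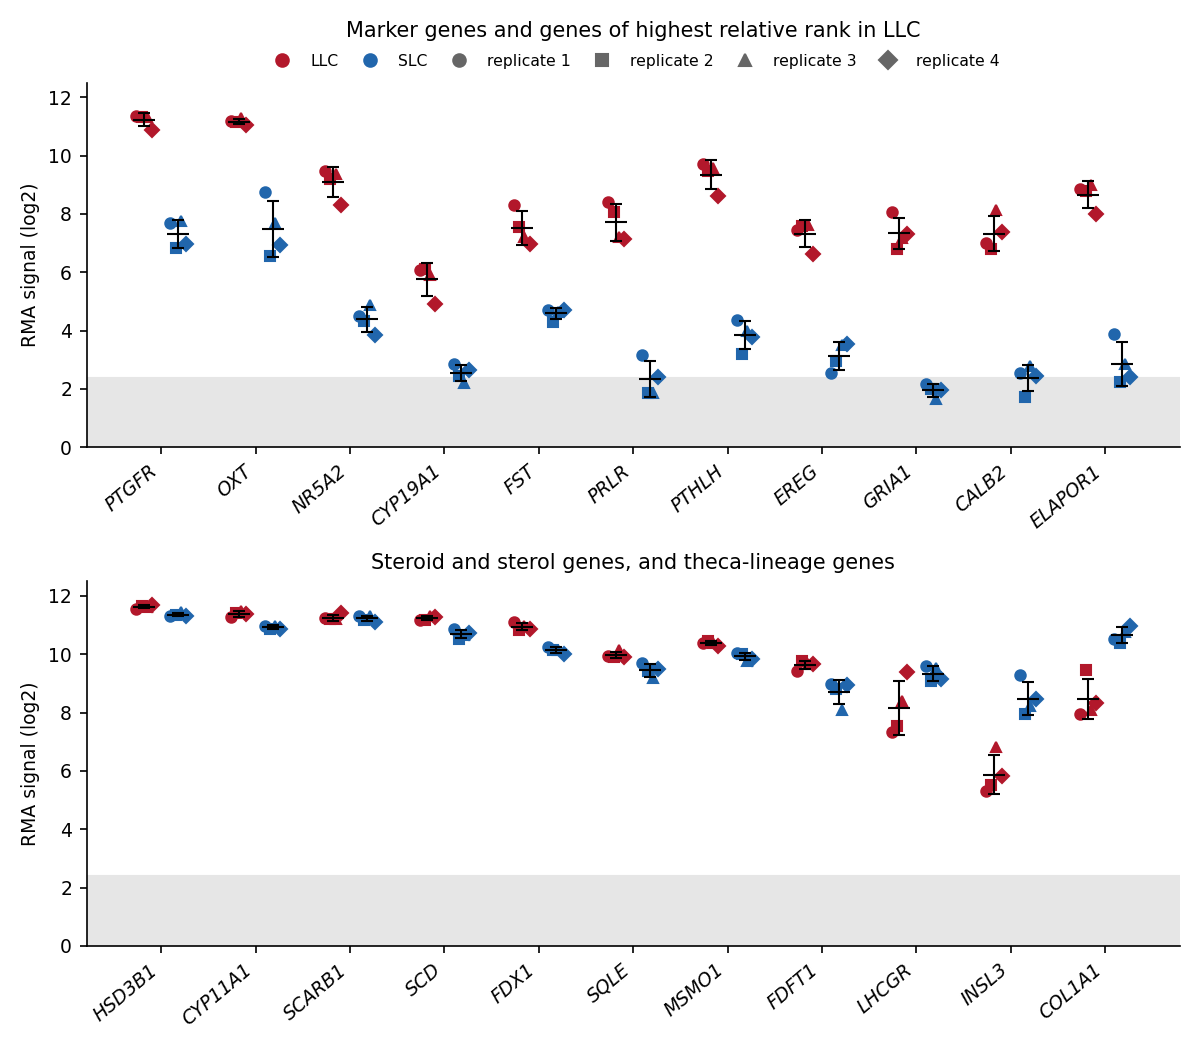
RMA signal (log2) of single genes in each array, with LLC in red and SLC in blue, 1 symbol shape per replicate number, and the mean and SD (n = 4) in black. The grey band ends at the mean background limit of the LLC arrays. PTGFR and OXT lie above 10.8 in all LLC arrays, GRIA1 lies in the background range in SLC, and LHCGR spreads from 7.33 to 9.38 in LLC.

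As facts of the whole series, the genes above background ranged from 12253 to 12590 per LLC array and from 12612 to 12780 per SLC array. Background was the 95th percentile of 711 olfactory receptor genes in the same array, a signal of 2.33 to 2.46 in LLC and of 2.27 to 2.30 in SLC. Pearson's r across genes, which are not independent replicates, was 0.977 to 0.987 between LLC arrays, 0.989 to 0.991 between SLC arrays and 0.939 to 0.974 between the types. LLC replicate 4 gave the highest r with each SLC array. With p-values adjusted over all clusters and a limit of 0.05, 2000 genes (11.1%) were called higher in LLC and 2114 (11.7%) lower. Of all 24415 clusters, 9.64% were higher in LLC and 10.2% lower. Genes called at a fold above 2 as well were 516 (2.85%) and 667 (3.69%), respectively. The depth of an array cannot be read from these values, and the 4 arrays per type limit the precision.

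The 20 genes of highest LLC signal covered several functions. HSD3B1, the enzyme that makes progesterone from pregnenolone, ranked first in each of the 4 LLC arrays at 11.56, 11.64, 11.62 and 11.68. These values were close together and above those in SLC, at 11.32 to 11.44, with a difference of 0.27 that did not pass the test (adjusted p = 0.0598). It passed with a filter on dim clusters (adjusted p = 0.048), with a variance trend and robust fit (0.0199) and by the methods' test without moderation (0.0131). CYP11A1, which cleaves the cholesterol side chain, averaged 11.38 ± 0.09 (SD, n = 4). SCARB1, the receptor that takes up cholesterol from high-density lipoprotein, averaged 11.26 ± 0.10, and SCD, a desaturase of fatty acids, 11.23 ± 0.06. FDX1, the electron carrier of CYP11A1, averaged 10.94 ± 0.12. Of these 4 genes, CYP11A1 (0.45, SE 0.09), SCD (0.54, SE 0.10) and FDX1 (0.81, SE 0.10) were higher in LLC, with adjusted p of 0.00774, 0.00495 and 0.000765. SCARB1 differed by 0.03 (SE 0.10, adjusted p = 0.878).

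TIMP1 and TIMP2, inhibitors of matrix metalloproteinases, stood among the 10 highest genes with means of 11.30 ± 0.18 and 11.21 ± 0.17, and neither passed the test against SLC (adjusted p = 0.594 and 0.142). SERPINE2, a protease inhibitor of granulosa cells, was at 10.95, 11.11, 11.13 and 10.56 in LLC. It was at 6.41 to 7.47 in SLC, and the difference of 4.03 (SE 0.22, adjusted p = 2.46e-05) exceeded that of PTGFR. Also among the 20 highest genes were FABP3, a carrier of fatty acids (10.66 ± 0.32), SOD2, the superoxide dismutase of mitochondria (10.75 ± 0.23), the hypoxia-responsive regulator HIF1A (10.88 ± 0.07), the widely expressed genes ACTB, GAPDH and VIM, TC2N (11.06 ± 0.14), TMEM254 (10.86 to 11.21) and the membrane protein gene ITM2B (10.95 ± 0.12). BUD23, an rRNA methyltransferase, averaged 10.87 ± 0.12 in LLC and 8.86 in SLC (adjusted p = 2.46e-05). Of the 200 highest genes by LLC mean, 134 were among the 200 highest by SLC mean. In single arrays, 140 genes were among the 200 highest in all 4 LLC arrays, compared with 164 in all 4 SLC arrays.

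Genes were grouped into 27 lists by function or cell type, of which 672 of 753 genes were measured. Over all genes the median LLC level was 3.60, the median SD of LLC 0.20, and the median difference from SLC 0.01. Of all genes, 11.1% were called higher in LLC and 11.7% lower. Among the 11652 genes above background in every LLC array these shares were 16% and 15.7%. The call counts of each list are to be read beside these shares. The highest list median in LLC was that of cholesterol synthesis (8.87), followed by ribosomal proteins (8.12) and oxidative phosphorylation (7.79).

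**Figure D2:**
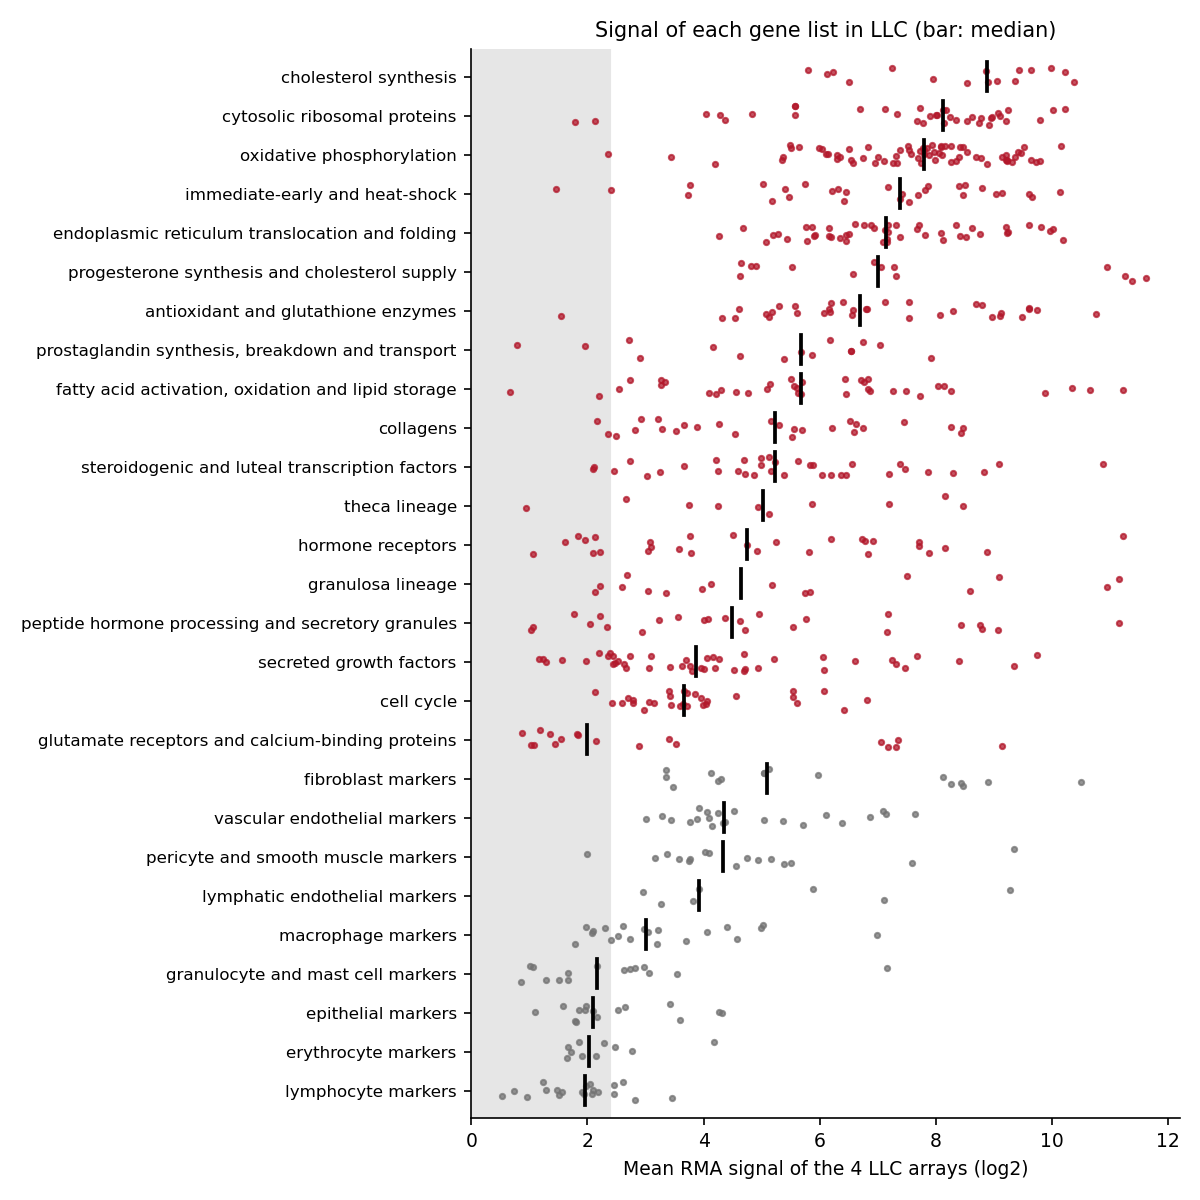
Mean RMA signal (log2) of the 4 LLC arrays for each measured member of the gene lists, with function lists in red, lists of other cell types in grey and a black bar at each median. The grey band ends at the mean background limit. Cholesterol synthesis has the highest median (8.87), and the medians of lymphocyte, erythrocyte, epithelial and granulocyte markers lie in the background band.

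All 14 measured genes of progesterone synthesis and cholesterol supply were above background in every LLC array, with a median level of 7.0. A total of 5 were called higher in LLC and 1 lower, and the median difference was 0.15. Besides CYP11A1 and FDX1, the 5 were NPC1, which moves cholesterol out of lysosomes (0.36, adjusted p = 0.0421), the cholesterol ester lipase gene LIPE (1.01, adjusted p = 0.0101) and the cholesterol exporter gene ABCA1 (0.73, adjusted p = 0.043). The call of NPC1 was lost without any of 7 single arrays (adjusted p 0.0658 to 0.118) and that of ABCA1 without any of 5 (0.0613 to 0.11). The count of 5 was 3 without LLC replicate 1, 3 or 4, or without SLC replicate 1 or 4. APOE, which encodes a lipoprotein component, was at 5.51, 5.28, 5.35 and 5.99 in LLC and higher in SLC (-0.79, SE 0.18, adjusted p = 0.0129). CYP11A1, FDX1 and HSD3B1, which turn cholesterol into progesterone, were thus at the top of the LLC signal range, with differences from SLC below 1 on the log2 scale.

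For cholesterol synthesis, 10 of 16 measured genes were called higher in LLC and 0 lower by limma, with a median difference of 0.41. At an unadjusted p under 0.05 these were 11 and 0, and all 16 were above background in every LLC array. MSMO1, the sterol methyl oxidase, was at 10.40, 10.45, 10.37 and 10.29, and DHCR7, the last enzyme of the pathway, at 10.13, 10.26, 10.27 and 10.28. SQLE, squalene epoxidase, averaged 9.98 ± 0.11, and FDFT1, squalene synthase, 9.63 ± 0.13. These signals varied little between LLC arrays, and the median SD of the list (0.13) was below that of all genes. FDFT1 had the largest difference (0.93, SE 0.19, adjusted p = 0.00759), followed by TM7SF2, a sterol reductase (0.80, SE 0.13, adjusted p = 0.00238). DHCR7 overlapped with SLC and differed by 0.19 (adjusted p = 0.229), or by 0.34 (adjusted p = 0.0348) after quantile normalization.

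The granulosa lineage list had 8 of 16 genes called higher in LLC, 2 called lower and a median difference of 0.66. Since this list contains 4 of the 5 markers, its count is in part a restatement of the label. Of the other members, TNFAIP6, a hyaluronan-binding protein of the ovulatory follicle, was at 8.58, 8.97, 8.83 and 7.95 in LLC and 5.25 to 6.15 in SLC (2.83, SE 0.25, adjusted p = 0.000132). FOXL2, a transcription factor of granulosa cells, was at 6.27, 6.07, 5.92 and 5.11 in LLC and 3.97 to 4.34 in SLC (1.70, SE 0.22, adjusted p = 0.000912). The 2 members higher in SLC were INHA, the alpha subunit of inhibin (-1.24), and GATM, an enzyme of creatine synthesis (-0.85). Not every gene of granulosa origin was therefore high in LLC.

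Of 10 theca lineage genes, 0 were called higher in LLC and 5 lower by limma (1 and 6 at an unadjusted p under 0.05), with a median difference of -1.10. INSL3, a peptide hormone of theca cells, was at 5.30, 5.53, 6.83 and 5.83 in LLC and at 7.95 to 9.27 in SLC (-2.60, SE 0.35, adjusted p = 0.00103). PDGFRA, also a fibroblast marker, was at 4.04, 5.22, 3.71 and 4.00 against 6.0 to 6.99 (-2.35, SE 0.32, adjusted p = 0.0011). The theca genes remained above background in LLC: 9 of the 10 did so in every LLC array. LHCGR, the luteinizing hormone receptor, was at 7.33, 7.55, 8.39 and 9.38 in LLC and 9.08 to 9.60 in SLC. LLC replicate 4 alone lay within the SLC range. The difference of -1.17 (SE 0.39) had an adjusted p of 0.0593, and without LLC replicate 4 it was -1.58 with an adjusted p of 0.00211.

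Among 29 measured hormone receptor genes, 8 were called higher in LLC and 9 lower (11.1% and 11.7% over all genes). The count of 9 was 5 without SLC replicate 4. After PTGFR, the highest level was that of PGRMC1, a membrane-associated progesterone receptor component, at 9.32, 9.09, 8.60 and 8.52 in LLC against 7.08 to 7.32 in SLC (1.68, SE 0.18, adjusted p = 0.000292). PRLR, the prolactin receptor, was at 8.42, 8.06, 7.22 and 7.13, whereas SLC was at 3.17, 1.86, 1.87 and 2.40, at or near background. Its difference of 5.38 (SE 0.35, adjusted p = 3.65e-05) was the largest of the list. GHR, the growth hormone receptor, was at 8.09, 8.16, 7.94 and 7.37 in LLC and differed by 1.56 (SE 0.17, adjusted p = 0.000422). LLC therefore had high signals for the receptors of both related pituitary hormones, prolactin and growth hormone. OXTR, the oxytocin receptor, was not above background in any LLC array (1.56 to 1.75).

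Of 24 genes of peptide hormone processing and secretory granules, 7 were called higher in LLC and 4 lower. Of the genes after OXT, PAM, which amidates peptides, had the highest signal in LLC, 9.13, 9.03, 8.87 and 9.25. It was slightly lower than in SLC (-0.39, SE 0.11, adjusted p = 0.0321), a call that was lost without SLC replicate 1, 2 or 3 or LLC replicate 2 or 3 (adjusted p 0.0731 to 0.0876). ATP6AP1, an accessory subunit of the vesicular proton pump, was at 8.90, 8.92, 8.84 and 8.50 and higher in LLC (1.27, SE 0.12, adjusted p = 0.000156). The granule protein gene SCG2 was at 4.09, 4.64, 3.71 and 6.05 in LLC and at 7.43 to 8.67 in SLC (-3.24, SE 0.47, adjusted p = 0.0013). CPE, the carboxypeptidase of prohormone processing, was also lower in LLC (-1.81, SE 0.32, adjusted p = 0.00374). CHGA and CHGB, the chromogranins of neuroendocrine granules, averaged 2.33 and 1.03 in LLC, close to or below background. Within the list, OXT, PAM and ATP6AP1 thus had high signals in LLC, although PAM was slightly lower there than in SLC. SCG2 and CPE were lower in LLC than in SLC. The chromogranins, which were picked once their values were known, had low signals in LLC, and their ranks overlapped with those in SLC.

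Secreted growth factors were split, with 10 of 44 called higher in LLC and 14 lower (11.1% and 11.7% over all genes). VEGFA, which drives blood vessel growth, had the highest LLC level of the list, at 10.03, 9.61, 9.88 and 9.43 against 7.03 to 7.71 in SLC (2.24, SE 0.18, adjusted p = 9.46e-05). PTHLH, the gene of parathyroid hormone-related protein, was at 9.70, 9.48, 9.58 and 8.61 against 3.21 to 4.36, the largest difference of the list (5.50, SE 0.28, adjusted p = 2.45e-05). EREG, an epidermal growth factor receptor ligand induced in granulosa cells at ovulation, was at 7.43, 7.60, 7.62 and 6.63 against 2.55 to 3.53 (4.18, SE 0.27, adjusted p = 3.65e-05). KITLG, the ligand of KIT, averaged 8.40 ± 0.63 (1.71, SE 0.30, adjusted p = 0.00362), and VEGFC, a growth factor of lymphatic vessels, 7.68 ± 0.57 (1.89, SE 0.26, adjusted p = 0.00116). In each of these 5 genes LLC replicate 4 was the lowest of the LLC arrays. Of the genes higher in SLC, IGF1 was at 3.30, 3.65, 2.74 and 3.99 in LLC and 5.26 to 6.44 in SLC (-2.38, SE 0.30, adjusted p = 0.000712).

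Of 15 genes of prostaglandin metabolism, 2 were called higher in LLC and 3 lower (11.1% and 11.7% over all genes). PLA2G4A, the phospholipase that frees arachidonic acid, was at 6.0, 5.86, 6.01 and 4.85 in LLC and 3.25 to 3.56 in SLC (2.30, SE 0.24, adjusted p = 0.000284). PTGR2, a reductase that inactivates prostaglandin metabolites, was at 6.77, 6.71, 6.87 and 5.78 against 4.72 to 4.78 (1.79, SE 0.21, adjusted p = 0.000576). PTGS2, the inducible cyclooxygenase, was at 5.08, 5.35, 3.40 and 4.67 and lower than in SLC (-2.23, SE 0.36, adjusted p = 0.00245), as was PTGIS, prostacyclin synthase (-1.83, SE 0.21, adjusted p = 0.000473). The third gene higher in SLC was HPGD, the main prostaglandin-degrading enzyme, which was above background in no LLC array (1.51 to 2.25). With LLC set to its background limit, the SLC to LLC ratio of HPGD was at least 1.45-fold.

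Of 35 transcription factor genes, 6 were called higher in LLC and 9 lower (11.1% and 11.7% over all genes). HIF1A had the highest LLC level, at 10.89, 10.80, 10.97 and 10.85 (0.73, SE 0.11, adjusted p = 0.0014), and NR5A2 the second. EPAS1, a second hypoxia-inducible factor, averaged 8.83 ± 0.10 (0.49, adjusted p = 0.0382), and RUNX2 8.29 ± 0.24 (0.65, adjusted p = 0.0306). Each call was lost on leaving out any of 6 single arrays, with adjusted p of 0.0512 to 0.0978 for EPAS1 and 0.0588 to 0.0758 for RUNX2. NR5A1, the steroidogenic relative of NR5A2, was lower in level, at 5.62, 5.32, 6.33 and 6.26 in LLC, and overlapped with SLC (-0.54, adjusted p = 0.169). NR4A1, an early response factor, was at 8.27, 7.72, 7.78 and 7.72 and higher in SLC (-0.59, SE 0.14, adjusted p = 0.0152). NR2F1 and NR2F2, orphan receptors of theca cells, were lower in LLC by fits of -1.31 and -1.02, and both were highest in LLC replicate 4 among the LLC arrays.

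**Figure D3:**
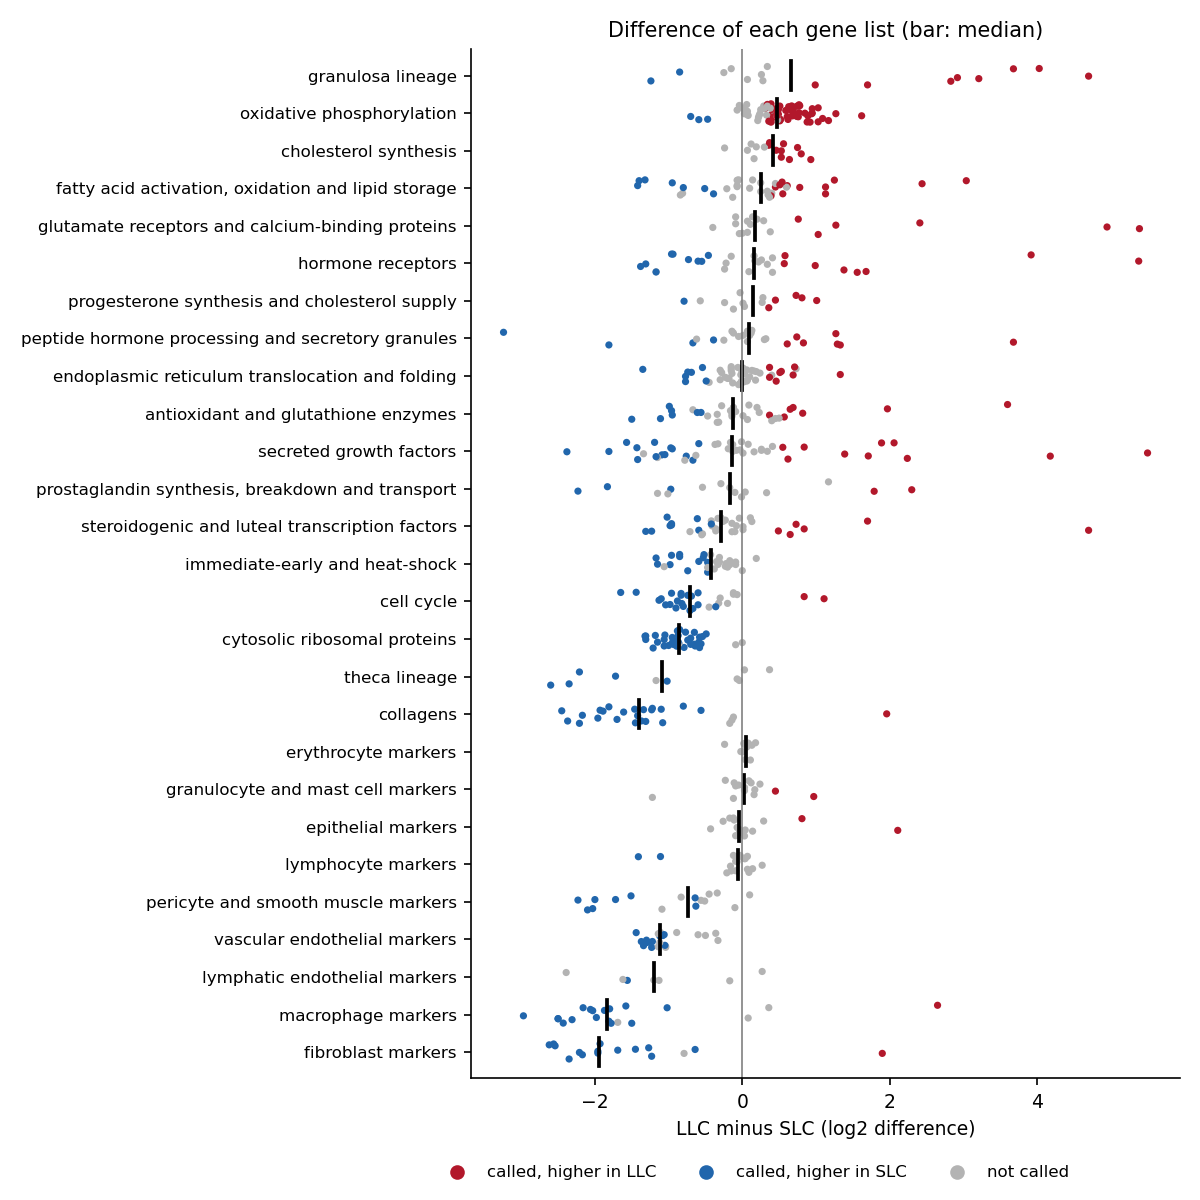
Difference between LLC and SLC (log2) for each measured member of the gene lists, where red and blue points passed the test in the direction given in the key and a black bar marks each median. Oxidative phosphorylation has 44 of 70 members higher in LLC, ribosomal proteins 34 of 37 higher in SLC, and the granulosa list has the highest median (0.66).

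Genes of oxidative phosphorylation and of cytosolic ribosomal proteins went in opposite directions. In oxidative phosphorylation, 44 of 70 measured genes were called higher in LLC and 3 lower (median 0.47), and 69 were above background in every LLC array. Leaving out 1 array gave counts higher in LLC of 30 (without SLC replicate 4) to 49 (without LLC replicate 4), and the methods' test gave 30. COX8A, a subunit of cytochrome c oxidase, was at 10.17, 10.19, 10.12 and 10.14 (0.36, SE 0.08, adjusted p = 0.0132). Larger differences were those of COX7B (1.62, SE 0.32, adjusted p = 0.00629), NDUFA5 (1.27, SE 0.21, adjusted p = 0.00275) and COX7A2 (1.17, SE 0.12, adjusted p = 0.00028). Most of the differences were below 1, and 6 of the 44 genes exceeded a 2-fold ratio. The mean of the list was 7.62, 7.68, 7.72 and 7.32 in LLC replicates 1 to 4 and 7.01 to 7.15 in SLC, so that LLC replicate 4 lay between the other LLC arrays and SLC.

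Of 74 listed cytosolic ribosomal protein genes, only 37 were measured. Of these 37, 0 were called higher in LLC and 34 lower by limma (0 and 35 at an unadjusted p under 0.05), with a median difference of -0.86. The signals of these genes were nevertheless high in LLC, with a median percentile of 97.2. RPS2 was at 10.06, 10.32, 10.10 and 10.40 in LLC and at 10.79 to 10.98 in SLC (-0.65, SE 0.11, adjusted p = 0.00286). RPS9 was at 8.15, 8.50, 8.57 and 8.89 against 9.71 to 9.93, with the largest difference of the list (-1.32, SE 0.15, adjusted p = 0.000438). Ribosomal protein genes have many processed pseudogenes, and a part of their signal may come from such copies, so single members are uncertain. The list mean was 7.29, 7.47, 7.44 and 7.60 in LLC and 8.19 to 8.34 in SLC, without overlap.

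Of 48 genes of protein entry and folding in the endoplasmic reticulum, 8 were called higher in LLC and 7 lower, with a median difference of -0.01. All 48 were above background in every LLC array, and over all 11652 genes of that kind 16% were called higher and 15.7% lower, so the list stood near this background. CANX, a lectin chaperone, averaged 10.19 ± 0.06 (0.37, adjusted p = 0.0149), PDIA3, a disulfide isomerase, 10.01 ± 0.15, and HSPA5, the main chaperone of this compartment, 9.97 ± 0.29. The largest differences were those of SSR4, a subunit of the translocon-associated complex (-1.35, SE 0.14, adjusted p = 0.000248), and of ERN1, a sensor of unfolded proteins (1.33, SE 0.11, adjusted p = 0.0001). ERN1 was at 5.65, 5.69, 5.92 and 5.87 in LLC and at 4.37 to 4.66 in SLC.

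Of 34 antioxidant and glutathione genes, 7 were called higher in LLC and 7 lower (11.1% and 11.7% over all genes). The count lower in LLC was 4 without SLC replicate 2. SOD2 was at 11.02, 10.62, 10.86 and 10.50 in LLC and 8.56 to 9.04 in SLC (1.97, SE 0.14, adjusted p = 6.85e-05). GPX3, a secreted glutathione peroxidase, was at 10.20, 9.69, 9.81 and 9.27 against 5.58 to 6.81 (3.60, SE 0.27, adjusted p = 6.97e-05). For either enzyme all LLC arrays lay above all SLC arrays, as in 12.6% of all genes, and GPX3 had the larger difference. GSTA1, a glutathione transferase of steroidogenic tissue, was high in both types, at 9.27, 9.09, 9.73 and 10.31 in LLC, and did not pass the test (-0.67, adjusted p = 0.0929), whereas without LLC replicate 4 it did (-0.91, adjusted p = 0.00898). Its paralogue GSTA2 was higher in SLC (-1.5, adjusted p = 0.00861), and close paralogues can share probe signal.

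In fatty acid metabolism, 12 of 37 genes were called higher in LLC and 7 lower. ACSL4, which activates arachidonic acid, was at 10.64, 10.57, 10.48 and 9.72 in LLC and 7.81 to 8.07 in SLC (2.44, SE 0.19, adjusted p = 7.93e-05). FABP3 was at 10.83, 10.83, 10.81 and 10.19 against 7.11 to 7.87 (3.04, SE 0.20, adjusted p = 3.65e-05). CD36, a fatty acid transporter, was lower in LLC, at 5.35, 5.97, 5.59 and 5.53 against 6.86 to 7.29 (-1.42, SE 0.15, adjusted p = 0.000345). The carrier and the transporter thus had opposite directions. PLIN2, the coat protein of lipid droplets, was high in LLC (9.88 ± 0.14) and overlapped with SLC (-0.07, adjusted p = 0.761).

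Some genes that are best known from neurons were high in LLC. GRIA1, a subunit of AMPA-type glutamate receptors, was at 8.08, 6.81, 7.16 and 7.30 in LLC (percentile 93.9). In SLC its signals of 2.18, 2.00, 1.64 and 1.97 lay below the background limit of each array, so that the ratio is at least 33.1-fold when SLC is set to that limit. The fitted difference of 5.39 (SE 0.24) had an adjusted p of 9.87e-06. GRIA3, a second subunit, was at 7.73, 7.49, 7.29 and 6.15 against 4.03 to 5.42 (2.41, SE 0.37, adjusted p = 0.00171). GRIA2 and GRIA4 were not above background in any LLC array. CALB2, the calcium-binding protein calretinin, was at 6.99, 6.79, 8.12 and 7.39 in LLC and 1.73 to 2.80 in SLC (4.95, SE 0.30, adjusted p = 2.60e-05). Of the 18 genes of this list, 6 were called higher in LLC and 0 lower by limma, as they were at an unadjusted p under 0.05, while 8 were above background in no LLC array.

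A total of 11652 genes (64.4%) were above background in all 4 LLC arrays, and 4870 in none. Of all 18087 genes, 63 were above background in every SLC array and in no LLC array. Conversely, 47 were above it in every LLC array and in no SLC array, as a consequence of that choice higher in LLC. Their mean LLC levels ran from 2.51 to 7.34 with a median of 3.24, and 12 exceeded 4. After GRIA1, the highest were FREM1, a protein of the extracellular matrix (5.83 ± 0.85), NLGN1, a synaptic adhesion protein (5.14 ± 0.61), PHYHIPL (4.71 ± 0.52) and the endocytic receptor gene LY75 (4.71 ± 0.74). Their bounds on the ratio were 11.6-fold for FREM1, 7.21-fold for NLGN1, 5.36-fold for PHYHIPL and 5.34-fold for LY75. LLC replicate 4 was the lowest LLC array in 37 of the 47. It was also the lowest in 588 of the 666 genes (88.3%) called higher in LLC at a fold above 2 without it. Further genes whose percentile in LLC was far above that in SLC were ELAPOR1, an endosomal and lysosomal protein (8.85, 8.79, 9.0 and 7.99 against 2.23 to 3.89), the calcium-dependent chaperone gene CLGN (6.03 ± 1.04), the phosphatase gene PTPRR (7.24 ± 1.14), the fructose bisphosphatase gene FBP1 (6.61 ± 0.75) and IBSP, a bone sialoprotein (6.51 ± 0.93). Those with the reverse pattern were the cytokine genes IL10, IL1A, IL1B and CCL8 and the complement gene C1QA, all with means between 2.44 and 3.50 in LLC.

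Markers of other cell types gave a graded picture in LLC. Lymphocyte markers were mostly at background, with 15 of 20 above it in no LLC array and a median of 1.95. Erythrocyte (2.03), epithelial (2.10) and granulocyte and mast cell markers (2.17) were also low. In the last list KIT stood apart, at 6.81, 6.43, 6.83 and 8.52. Among macrophage markers the median was 3.01 in LLC and 4.33 in SLC, and 16 of 20 were higher in SLC. The exception was CYBB, a subunit of the phagocyte NADPH oxidase, at 7.02, 7.59, 7.16 and 6.15 in LLC and 4.02 to 4.54 in SLC (2.65, SE 0.26, adjusted p = 0.000248). Of the 20 macrophage markers, 11 were above background in every LLC array and 3 in none. CD163, a scavenger receptor, was at 2.60 to 3.45 in LLC, low but above background. CSF1R, the receptor of the macrophage growth factor, was likewise at 2.99 to 3.60. CD163 and CSF1R were picked once their values were known.

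Fibroblast and collagen genes were lower in LLC than in SLC but not absent. Of 16 fibroblast markers, 14 were called lower in LLC and 1 higher, and all but 1 were above background in every LLC array. LUM, a proteoglycan, was at 10.17, 10.70, 10.20 and 10.95 and DCN, decorin, at 8.42, 9.40, 8.52 and 9.23, and both were lower than in SLC (-0.64 and -1.69). The LUM call was lost on leaving out any of 6 single arrays (adjusted p 0.0525 to 0.0674). The exception was FBLN1, fibulin, at 8.34, 8.29, 8.04 and 7.81 (1.90, SE 0.17, adjusted p = 0.000132). The collagen list had 22 of 26 genes called lower in LLC, and COL8A1 alone was called higher (1.96, SE 0.28, adjusted p = 0.00132). COL1A1 was at 7.94, 9.45, 8.10 and 8.33 in LLC and 10.39 to 10.98 in SLC (-2.21, SE 0.30, adjusted p = 0.001). The part of residual stromal cells in the LLC signals of these genes was not tested.

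Vascular endothelial markers were above background in every LLC array for all 22 measured genes, and 11 were higher in SLC (median -1.12), a count of 5 without SLC replicate 2 and of 6 without SLC replicate 4. The smallest values were in LLC replicate 3. ENG, a co-receptor of endothelial cells, was at 7.97, 7.74, 6.91 and 7.93, and EMCN, endomucin, at 7.70, 7.42, 5.78 and 7.67. Of 16 pericyte and smooth muscle markers 8 were higher in SLC, and of 7 lymphatic markers 1. The latter count was 5 without LLC replicate 4 and 0 without SLC replicate 2 or 3 or LLC replicate 1, 2 or 3. At an unadjusted limma p under 0.05, 21 of 22 vascular, 10 of 16 pericyte and 5 of 7 lymphatic markers were higher in SLC. In each of these lists 0 were higher in LLC. Of 29 cell cycle genes, 20 were called lower in LLC than in SLC and 2 higher, while their median LLC level of 3.67 was near that of all genes. MKI67, a marker of dividing cells, was at 3.94, 3.94, 3.79 and 3.76 against 5.34 to 5.81 (-1.65, SE 0.12, adjusted p = 7.27e-05). Of 29 immediate-early and heat-shock genes, 12 were called lower in LLC and 0 higher by limma (18 and 0 at an unadjusted p under 0.05). The count of 12 was 8 without SLC replicate 4 and 16 without LLC replicate 4. Nevertheless, DUSP1 (9.65 ± 0.24), EGR1 (9.60 ± 0.16) and FOS (9.04 ± 0.22) had high signals in LLC too.

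The LLC arrays differed more among themselves than the SLC arrays did. Over the 11652 genes above background in LLC, the median SD was 0.217 in LLC and 0.151 in SLC, and the SD of LLC was the larger in 70.9% of genes. The SD exceeded 1 in 71 genes and was under 0.1 in 1205. Among the 200 highest genes, the most even across LLC arrays were RPN2, a subunit of the oligosaccharyltransferase (9.24, 9.22, 9.25 and 9.25), the autophagy gene GABARAPL1 (9.18, 9.21, 9.17 and 9.18), the proteasome assembly gene POMP (9.33, 9.35, 9.30 and 9.31), COX8A, the sterol desaturase gene SC5D (9.07, 9.05, 9.09 and 9.02) and HSD17B12. HSD3B1 and ACTB were also among the 10 most even genes. Whether signals at the top of the range were compressed by saturation was not tested.

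The largest SD belonged to ANG, angiogenin, at 5.29, 3.38, 3.39 and 8.19 in LLC against 5.51 to 6.74 in SLC. RNASE4, a ribonuclease of the same family whose signal may not be fully separate from that of ANG, was at 5.95, 5.35, 4.36 and 8.58, and LLC replicate 4 was the highest for both. CCL21, a chemokine of lymphatic endothelium, was at 6.15, 5.46, 3.84 and 8.12. CA2, a carbonic anhydrase, had another pattern, at 8.52, 9.13, 5.90 and 5.03, with replicates 1 and 2 high. CFTR, a chloride channel, likewise was at 5.66, 5.25, 2.91 and 3.27, and its SLC signals of 1.24 to 1.91 were all below background. CYP17A1, the androgen-producing enzyme of theca cells, was high in the opposite replicates, at 2.63, 3.01, 4.74 and 4.59, while SLC was at 3.64 to 3.88. CYP17A1 was thus below SLC in 2 LLC arrays and above it in the other 2, with a difference of -0.04 (SE 0.43, adjusted p = 0.965).

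Single arrays stood out in further genes. In LLC replicate 1, ULBP3 (6.09) and IGFBP3 (7.10) were more than 1 above each of the other LLC arrays. The class II histocompatibility genes BOLA-DQB1 and BOLA-DQA1 were high in LLC replicate 2 (6.29 and 5.43) and at 2.92 to 3.86 and 2.66 to 3.51 in the others, and since these genes are highly polymorphic, probe signals can differ between alleles. CA12, another carbonic anhydrase, was at 5.60 in LLC replicate 3, where the other LLC arrays were at 2.77 to 3.02. By number, genes more than 1 below the median of the other 3 arrays were 230 in LLC replicate 3 (1.97% of genes above background), 168 in replicate 4, 71 in replicate 1 and 19 in replicate 2. Genes more than 1 above it were 138 in replicate 4, 87 in replicate 2, 67 in replicate 1 and 32 in replicate 3.

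**Figure D4:**
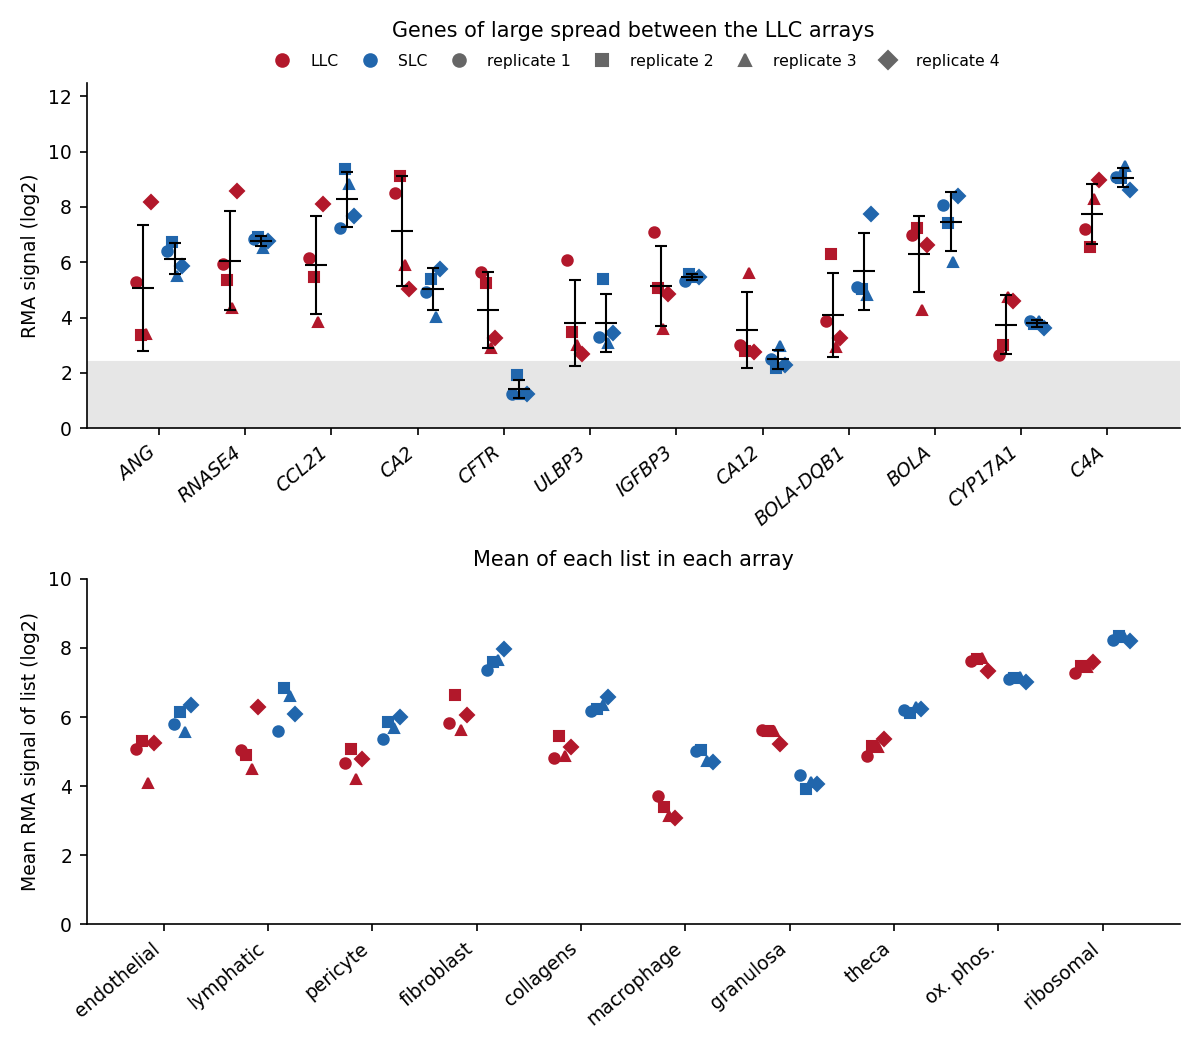
Upper panel: RMA signal (log2) of genes with a large spread between the LLC arrays, with the mean and SD (n = 4) in black and the background range in grey. Lower panel: mean signal (log2) of the members of 10 lists in each array, with no error bars. LLC replicate 3 has the lowest endothelial mean (4.08) and LLC replicate 4 the highest lymphatic mean of the LLC arrays (6.29).

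Marker lists differed between the LLC arrays as well. In LLC replicate 3, 13 of the 22 vascular endothelial markers were more than 1 below the median of the other LLC arrays. The mean of all 22 was 5.08, 5.30, 4.08 and 5.25 in LLC replicates 1 to 4, against 5.57 to 6.34 in SLC. SELP, an adhesion molecule of endothelium and platelets (3.94 in LLC replicate 3, otherwise 6.41 to 6.83), had the same order. Lymphatic markers were highest in LLC replicate 4, with means of 5.04, 4.89, 4.49 and 6.29 against 5.60 to 6.85 in SLC. In that array 5 of 7 genes were more than 1 above the median of the other LLC arrays. The defining lymphatic factor PROX1 was at 2.62, 2.30, 2.44 and 4.44. Fibroblast markers were highest in LLC replicate 2, with means of 5.83, 6.65, 5.64 and 6.06. There, 6 of 16 genes were more than 1 above the median of the other LLC arrays. Macrophage means were 3.71, 3.41, 3.14 and 3.07. No LLC array was therefore the highest for all lists of other cell types.

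The position of each LLC array relative to SLC was then described on genes that had been called at a fold above 2 without that array. Among 666 such genes higher in LLC, LLC replicate 4 was nearer to SLC than the other 3 LLC arrays in 588 (88.3%). Its median position was 55.1% of the way from the SLC mean to the mean of the other LLC arrays. For LLC replicates 1, 2 and 3 the corresponding medians were 117.8%, 105.2% and 109.7%, over 463, 484 and 481 genes. Their reference mean includes LLC replicate 4, which raises these percentages and widens the gap to 55.1%. Choosing genes by the other 3 arrays also draws any left-out array towards SLC. Among genes higher in SLC, the medians were 100.3%, 75.3%, 122.5% and 71.5% for replicates 1 to 4. LLC replicate 4 thus stood apart mainly in genes higher in LLC, and in genes higher in SLC LLC replicate 2 lay about as near to SLC. Each estimate compares 1 array with 3 others and has no replicate error.

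**Figure D5:**
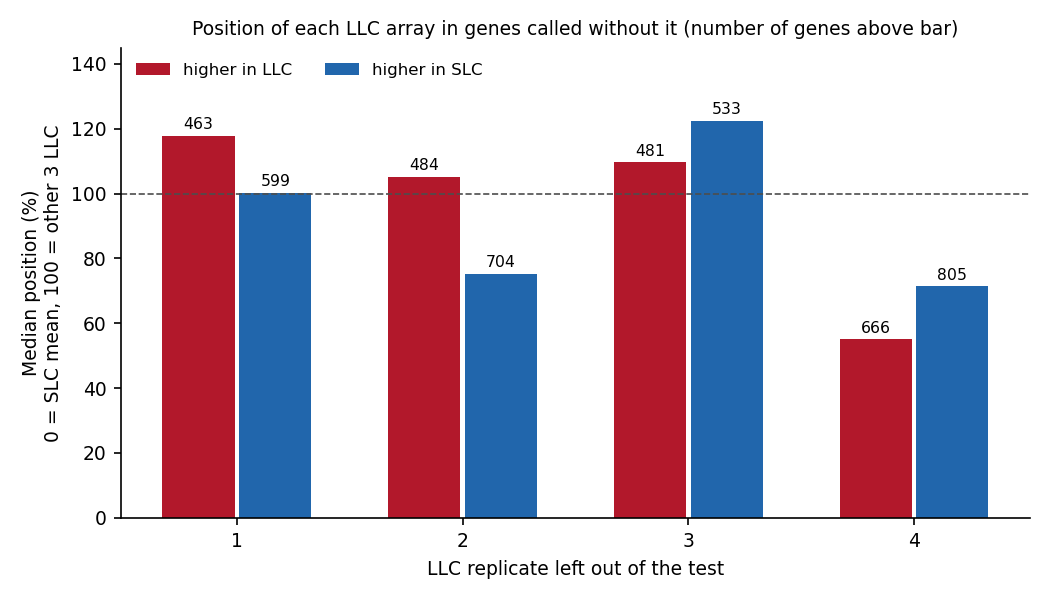
Median position (%) of each LLC array between the SLC mean (0) and the mean of the other 3 LLC arrays (100), for genes called at a fold above 2 without that array, with the number of genes above each bar. LLC replicate 4 lies at 55.1% for genes higher in LLC, and the other 3 arrays, whose reference mean includes LLC replicate 4, lie above 100%.

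The markers and leading genes of LLC differed in this respect. In LLC replicate 4, OXT was at 96.0% of the way from SLC to the other LLC arrays, GRIA1 at 99.1% and PTGFR at 89.0%, whereas CYP19A1 was at 67.9%. Of the 666 genes, 40 were at 90% or more and 265 under 50%. Below the highest SLC array were 51 genes, including CDH2, N-cadherin (7.97, 7.77 and 7.49 in LLC replicates 1 to 3, 6.14 in replicate 4, and 3.82 to 6.54 in SLC), and LRP4, an agrin receptor (5.85, 5.71 and 5.36, then 3.88, and 3.68 to 3.92 in SLC). CDH2 and LRP4 were picked once their values were known. Beside these values, LHCGR and KIT were highest in LLC replicate 4 among the LLC arrays, the theca lineage mean was 4.87, 5.15, 5.14 and 5.37, and the granulosa lineage mean was 5.62, 5.61, 5.60 and 5.21. The part of SLC, lymphatic cells or RNA quality in this array was not tested.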

How the data were processed

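The authors deposited log2 signals of the Bovine Gene 1.0 ST array, made by RMA (background correction, quantile normalization and summary of probes into transcript clusters) for 4 LLC and 4 SLC arrays. The labels name a labelling kit of 3' type, and the genome build was not given in the sources used here. Of 24415 clusters, 18550 carried 1 gene symbol in the array annotation, 595 several and 5270 none, and 18086 of the former matched a RefSeq gene. Per symbol, the cluster of highest mean over 8 arrays was kept (18087 genes). Groups followed the labels. LLC and SLC were compared with limma 3.58.1 in R 4.3.3 (lmFit and eBayes, two-sided, no block) on all clusters, with Benjamini-Hochberg adjustment and a call at an adjusted p under 0.05. Other calculations used Python 3.11.15, pandas 2.3.3 and numpy 2.4.6. On simulated LLC and SLC arrays of 24415 clusters, limma recovered 14 of 50 clusters with a fold of 1.5, 40 at a fold of 2, 48 at 4 and 50 at 8, and called 5 unchanged clusters. The simulation changed 50 clusters at each fold and used independent normal noise with the same SD in both types. Far more clusters were called in the real data, so these rates are not those of the real comparison. A bound on a ratio sets SLC to its background limit. Alternatives were other normalizations, a filter on dim clusters, a replicate block, each array left out, other variance models, array weights, the methods' test (ANOVA without moderation), a fold filter and other background limits.

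The members and gene lists were chosen with earlier results of these data known. Genes were named as the 5 markers, the 20 highest in LLC, up to 5 highest and up to 3 called members of largest difference per function list, up to 4 highest per list of another cell type, the 10 of largest and 10 of smallest SD (the latter among the 200 highest), the 15 and 5 called genes of most different percentile, and the 4 furthest above and below the other arrays in each LLC array. Other named genes complete a count or pair with a named gene, and were picked once their values were known: NPC1, INHA, GATM, OXTR, CHGA, CHGB, HPGD, NR5A1, GRIA2, GRIA4, CD163, CSF1R, FBLN1, COL8A1, PROX1, PHYHIPL, LY75, CDH2 and LRP4.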

Additional observations from a re-analysis of the deposited data

Results flagged for a closer look

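In a group of 4 arrays, a gene is given here where the gap of its highest or lowest array to the nearest other exceeded Dixon's 95% critical value as a share of the range, which chance gives in about 1 in 20 groups. Of 266 groups tested, over the 2 cell types of the genes named above, 25 met this. Since some of these genes were named for a large SD or for 1 array far from the others, or were picked once their values were known, this count cannot be read against the chance rate.

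LLC replicate 4 was low for PTGFR (10.89, others 11.31 to 11.37), CYP19A1 (4.91, others 5.91 to 6.11), FABP3 (10.19, others 10.81 to 10.83), VEGFC (6.83, others 7.91 to 8.03), PLA2G4A (4.85, others 5.86 to 6.01), PTGR2 (5.78, others 6.71 to 6.87) and CD163 (2.60, others 3.31 to 3.45). It was high for PROX1 (4.44, others 2.30 to 2.62). Low signals of genes that were higher in LLC thus recurred in this array, while the macrophage gene CD163 was low and the lymphatic gene PROX1 high.

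LLC replicate 3 was low for the endothelial genes EMCN (5.78, others 7.42 to 7.70) and SELP (3.94, others 6.41 to 6.83). It was high for CA12 (5.60, others 2.77 to 3.02) and OXTR (1.75, others 1.56 to 1.58, all below background). LLC replicate 1 was low for DHCR7 (10.13, others 10.26 to 10.28) and high for GATM (3.26, others 2.94 to 2.99) and NR4A1 (8.27, others 7.72 to 7.78). LLC replicate 2 was low for RUNX2 (7.93, others 8.38 to 8.45).

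Among SLC arrays, replicate 4 was low for TIMP2 (11.34) and NPC1 (6.51) and high for GRIA2 (1.21) and BOLA-DQB1 (7.76). SLC replicate 3 was high for ERN1 (4.66) and low for EGR1 (9.70), SLC replicate 2 was high for CFTR (1.91) and ULBP3 (5.38), and SLC replicate 1 was high for BUD23 (9.08).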

How the results depend on the processing

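Clusters called numbered 2353 higher in LLC and 2481 in SLC, and 584 and 750 with a fold above 2. The methods' test gave 1638 and 1594. Leaving out 1 array gave 1684 to 2719 and 1822 to 2818. Genes above background in all LLC arrays numbered 13273 with the limit at the 90th and 8608 at the 99th percentile of olfactory receptors, and 11725 to 11855 without 1 LLC array. The share of genes with the larger SD in LLC was 62.5% to 68.1% without 1 LLC array. With the replicate number as a block the calls were 2033 and 2303. Same-numbered deviations correlated at -0.132, -0.066, 0.167 and 0.011, so the numbers were not taken as pairs. Both fractions were sorted from mixed luteal cells, so LLC and SLC arrays may still share cows, which the unpaired test ignores.

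Of 74 called genes tested by name, 61 kept their call in every alternative, 5 lost it under the methods' test alone, and 6 without some single array. The 2 others, COX8A and CANX, lost it with the block (adjusted p = 0.053 and 0.0506). LHCGR, not called, passed with the dim filter (adjusted p = 0.0407) and with array weights (0.0256). The difference of SCARB1, not called, was -0.03 with quantile normalization and, on leaving out 1 array, from -0.02 (LLC replicate 4) to 0.06 (SLC replicate 1), with -0.00 without SLC replicate 4, and that of PLIN2 was 0.05 with quantile normalization. Under the methods' test, genes higher in SLC were 3 endothelial, 5 pericyte, 7 immediate-early, 3 antioxidant and 5 receptor genes. With the block, 19 endothelial genes were higher in SLC. The cause was not tested.

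Values near background and the 4 arrays per type limit precision, and saturation cannot be read from RMA signals.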
